A study of Mus musculus with 6 samples.

Results

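Polyamine metabolism was followed through 10 genes of the count table: Odc1, Amd1, Srm, Sms and Arg2 for synthesis, Sat1 and Smox for catabolism, and Oaz1, Oaz2 and Azin1 for control by antizyme. They were chosen by name, with earlier results of these data known. All 10 of 10 were found among the 31017 genes of the table and passed the filter on low counts, with 14268 genes tested in all. The libraries came from mouse Th17 cells, helper T cells that secrete interleukin 17, differentiated in culture. Controls were labelled with the genotype WT (3 libraries) and the others with the genotype KO (3 libraries), deficient in RTF1, a factor that travels with RNA polymerase II and promotes ubiquitination of histone H2B. The comparison asks which transcripts differ when RTF1 is deficient. The labels give no allele, Cre driver, strain, age or pooling of animals, and do not say which mice the cultures came from. Sex-linked counts, given below, differ within each group, so its libraries came from more than 1 mouse, but which share an animal is not known, and p-values measure the spread between these libraries.

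Putrescine, spermidine and spermine are small, positively charged amines that bind RNA and are needed for translation and growth. Ornithine decarboxylase makes putrescine from ornithine, and the spermidine and spermine synthases then add aminopropyl groups taken from decarboxylated S-adenosylmethionine, while acetylation and oxidation turn the chain back. Antizymes bind ornithine decarboxylase and hand it to the proteasome, and antizyme inhibitor captures the antizymes. T cells switch this pathway on when activated, and polyamine supply is known to influence Th17 and regulatory T cell programs.

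Part of this control acts on translation, which counts of mRNA do not measure, so the sites that carry it are shown first. Antizyme mRNA is read in one frame up to a stop codon, and polyamines let the ribosome shift frame there and complete the protein. The site was read from the GENCODE release M21 transcripts of Oaz1 and Oaz2, with the last codon before the shift and the first-frame stop in capitals. Windows were cut around the string TGCTCCTGA, held by 2 of 7 Oaz1 and 3 of 7 Oaz2 transcripts, so those bases match by construction. Of 30 bases, this string included, 28 were identical between both genes.
Oaz1 frameshift site: cctcggtggtgcTCCTGAtgtccctcaccc
Oaz2 frameshift site: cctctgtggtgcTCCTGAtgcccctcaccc
The leader of Amd1 holds a short upstream reading frame of 6 codons before its stop, with the frame and its stop in capitals, a textbook element through which polyamines restrain translation of this mRNA.
Amd1 upstream frame: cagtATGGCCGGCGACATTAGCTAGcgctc

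As a check of the labels, Rtf1 held 94.0, 91.2 and 88.3 CPM (counts per 1000000 reads counted, with TMM factors) in control replicates 1, 2 and 3 and 45.3, 30.4 and 26.2 CPM in KO replicates 1, 2 and 3. KO libraries were all lower (log2 fold change −1.42, SE 0.191, edgeR adjusted p = 0.000755). Total counts ran from 16489813 to 51271226 per library. T cell markers summed to 1100 to 1504 CPM in control and 1035 to 1426 CPM in KO, but not all moved one way: Cd4 held 486 ± 48.6 CPM in control and 254 ± 36.04 CPM in KO (SD, n = 3) and fell by 0.94 on the log2 scale (edgeR adjusted p = 0.00132), Cd3e (0.71) and Cd3g (0.72) rose, and Cd28 was not called (0.01). Of the Th17 cytokine genes, Il17a held 222 to 347 CPM in control and 40.3 to 161 CPM in KO, and Il17f 938 to 1538 CPM and 329 to 817 CPM, and both fell (edgeR adjusted p = 0.0125 and 0.0144). Markers of B, CD8 and NK, erythroid and fibroblast cells summed to at most 10.45 CPM per list in any library, with Ncr1, Klrb1c, Hba-a2 and Col3a1 at 0 in all libraries. The 6 myeloid markers summed to 2.64 to 5.75 CPM in control and 16.7 to 27.5 CPM in KO, most of it from Cd68, and 2 of the 3 tested, Cd68 and Csf1r, rose. The third, Fcgr3, was lower in every KO library (0.545 ± 0.174 and 0.211 ± 0.0951 CPM; log2 fold change −1.33, edgeR adjusted p = 0.0536) and was not called, while Adgre1 and Itgam were at or below 0.134 CPM. Lyz2, too low to be tested, held 0, 2 and 4 reads in control replicates 1, 2 and 3 and 46, 11 and 8 reads in KO replicates 1, 2 and 3. Replicate 3 of both groups held 11376 and 5147 counts of 4 Y-linked genes against 1 to 3 in the other libraries, and 5 and 1 counts of Xist against 14668 to 28176. Sat1 and Sms are X-linked, so their values in the libraries numbered 1 and 2 alone are given below.

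In KO, 3 of the 10 members rose (Sat1, Arg2 and Oaz2), 3 fell (Srm, Sms and Azin1) and 4 did not pass the test (Odc1, Amd1, Smox and Oaz1), at an edgeR adjusted p under 0.05. Across all tested genes 46.1% were called, 23.2% higher and 22.9% lower, so the members' counts in each direction lie near the background. By CPM, 6 members had groups that did not overlap, 3 higher and 3 lower in KO, against 57.9% of all tested genes (29.9% higher and 28.0% lower). Their median log2 fold change was −0.30, against 0.01 over all tested genes. In the same KO libraries the myeloid marker sum was higher and Cd4, Il17a and Il17f were lower, and their part in these results was not tested. Blocking on the replicate number called 5 members lower in place of 3, adding Amd1 and Oaz1, while its share of all tested genes called lower was 26.4%. Reading equal numbers as pairs is an assumption, since the labels do not state it and the correlations given under processing do not settle it. Lower calls numbered 1 when control replicate 1, control replicate 2, KO replicate 2 or KO replicate 3 was left out and 5 without control replicate 3. Those fits called 19.1%, 20.6%, 15.1%, 16.9% and 25.8% of all tested genes lower, in the same order. Calls in either direction numbered 3 without control replicate 1, control replicate 2 or KO replicate 2, where 34.8%, 40.2% and 31.1% of all tested genes were called.

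**Figure D1:**
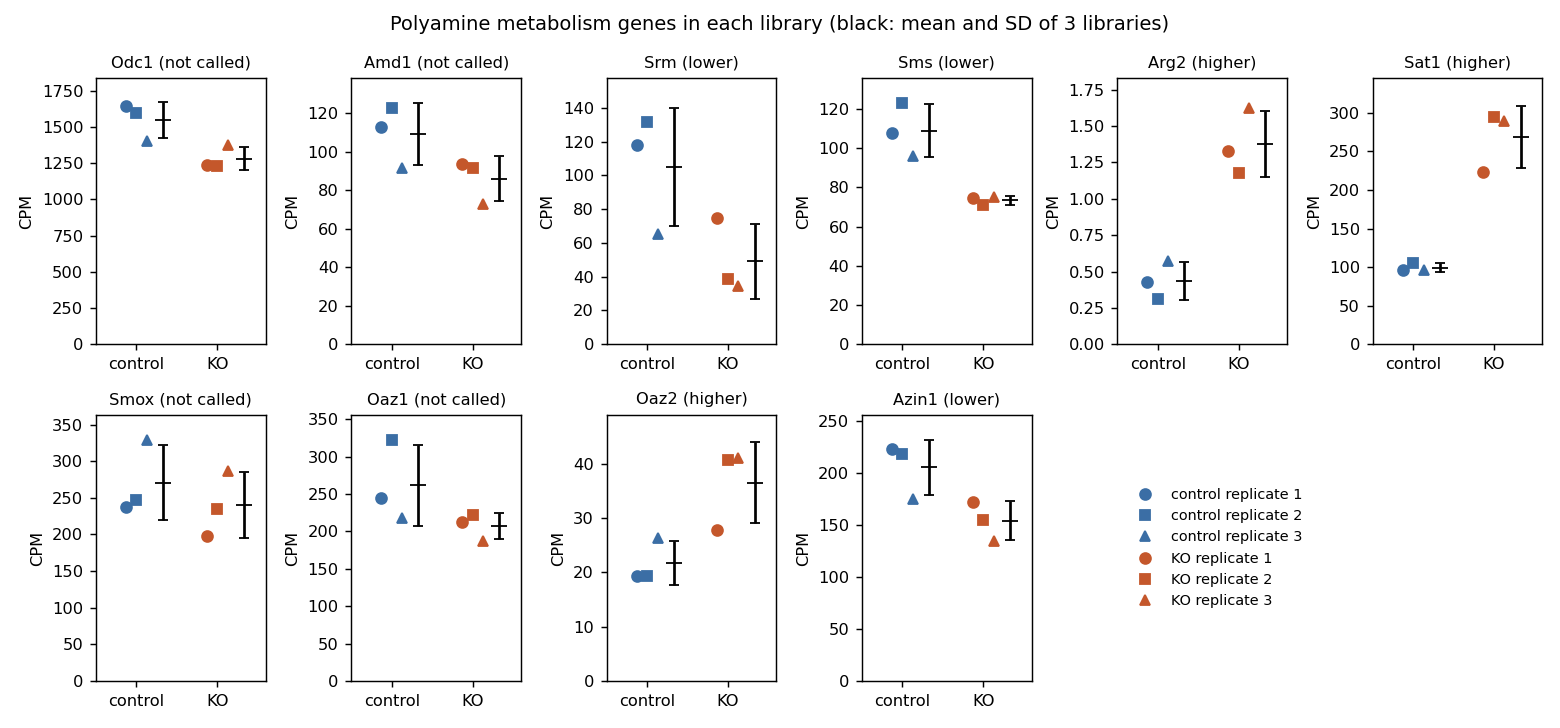
CPM (vertical axis, from 0) of each member in 3 control and 3 KO libraries, with the mean and SD in black and the edgeR call in each title. Sat1, Arg2 and Oaz2 lie higher in every KO library than in every control library, and Odc1, Sms and Azin1 lower.

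Compared per kilobase of exon, with each library's values scaled to sum to 1000000, Odc1 was the most abundant member in both groups, at 1391 ± 129.6 in control and 1269 ± 82.4 in KO (SD, n = 3), above 99.5% of the genes with a count. Odc1 alone took 51.8% to 58.7% of the members' reads. In control it was followed by Oaz1 (311 ± 46.6), Smox (214 ± 45.9), Srm (199.7 ± 61.7), Sat1 (109 ± 1.04), Azin1 (100.3 ± 12.9), Amd1 (93.9 ± 11.2), Sms (55.3 ± 4.44), Oaz2 (22.3 ± 4.81) and Arg2 (0.942 ± 0.318). The library values of Smox and Srm overlapped in this order, as did those of Sat1 and Azin1 and of Azin1 and Amd1, while the other neighbours were separate. In KO, Sat1 stood second at 327 ± 50.8, above 98.0% of the genes with a count where it was above 93.6% in control, overlapping Oaz1 (274 ± 23.9), which in turn overlapped Smox (208 ± 39.7). Srm (103 ± 45.6) then overlapped Azin1 (83.0 ± 9.75), which overlapped Amd1 (81.8 ± 10.8). Sms (41.22 ± 1.07) overlapped Oaz2 (41.22 ± 8.74).

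**Figure D2:**
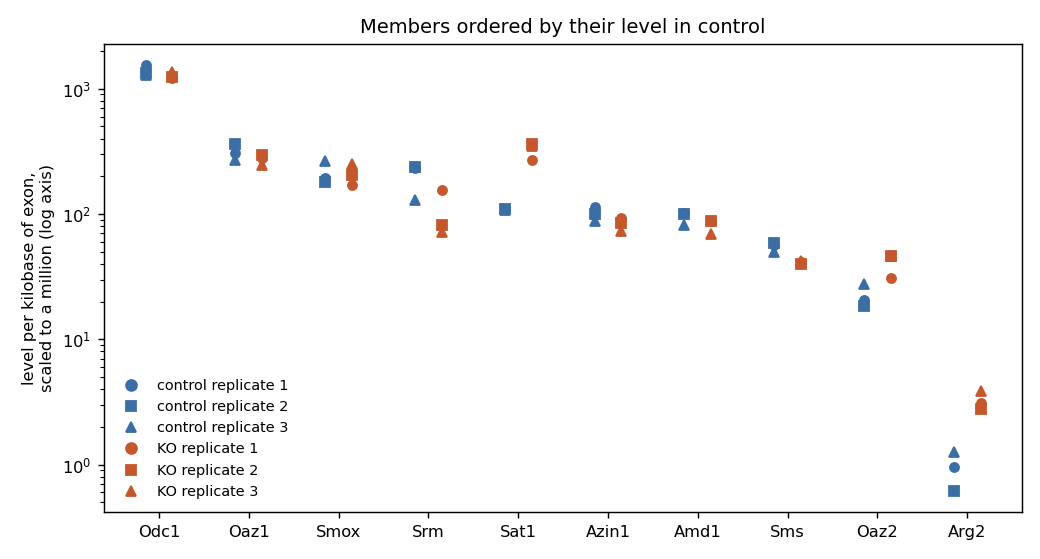
Level per kilobase of exon, scaled to the same sum in each library (log axis), of each member in each library, ordered by the control mean. Odc1 stands at the top in both groups, and Sat1 moves from below Srm in control to the place after Odc1 in KO.

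Synthesis begins with Odc1 (chr12:17544794-17551505, plus strand, GRCm38), the gene of ornithine decarboxylase, the first and classically rate-limiting step. It held 1646, 1593 and 1404 CPM in control replicates 1, 2 and 3 and 1235, 1233 and 1376 CPM in KO replicates 1, 2 and 3. The groups did not overlap, but KO replicate 3 lay just under control replicate 3. The log2 fold change was −0.27 (SE 0.129, 95% interval −0.56 to 0.02, edgeR adjusted p = 0.114), so Odc1 was not called, and it was called under none of the 14 alternatives (edgeR and DESeq2 adjusted p 0.0679 to 0.314). Transcripts of other genes, such as Gm7993, hold 24.3% of its 50-base stretches, so reads from those parts are uncertain.

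Myc, whose product is the textbook activator of Odc1 and Srm, was also lower in every KO library, at a mean of 188 ± 14.6 CPM against 312 ± 29.5 CPM (SD, n = 3). It fell by 0.73 on the log2 scale (SE 0.123, edgeR adjusted p = 0.00193). Whether this bears on the polyamine genes was not tested.

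Amd1 (chr10:40287458-40302186, minus strand) encodes S-adenosylmethionine decarboxylase, which makes the aminopropyl donor. Its values were 113, 123 and 91.3 CPM in control and 93.8, 91.4 and 72.8 CPM in KO, and the groups overlapped at control replicate 3. The log2 fold change of −0.34 (SE 0.148, 95% interval −0.68 to −0.01) was not called (edgeR adjusted p = 0.0883), but passed under the replicate block (adjusted p = 0.0185), with the libraries numbered 1 and 2 only (adjusted p = 0.0442) and without control replicate 3 (−0.51, adjusted p = 0.0142). Amd1 is uncertain, since 78.1% of its stretches occur elsewhere, most of them in the near-identical copy Amd2, which itself held 1.40 ± 0.0768 and 1.36 ± 0.457 CPM.

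Srm (chr4:148591503-148594993, plus strand), the gene of spermidine synthase, showed the largest decrease among the members. It held 118, 132 and 65.3 CPM in control replicates 1, 2 and 3 and 74.5, 38.6 and 34.3 CPM in KO replicates 1, 2 and 3. Control replicate 3 was the low control and KO replicate 1 the high KO library, and these 2 crossed. Srm fell by 1.09 on the log2 scale (SE 0.333, edgeR adjusted p = 0.0253), a mean of 105 ± 35.1 against 49.1 ± 22.1 CPM (SD, n = 3). Within each pair of equal replicate number KO was lower, by log2 ratios of −0.66, −1.77 and −0.93, and the replicate block gave −1.12 (adjusted p = 0.000941). The call was lost without control replicate 1 (−1.09, adjusted p = 0.0635), control replicate 2 (−0.91, adjusted p = 0.0905), KO replicate 2 (−0.94, adjusted p = 0.0966) or KO replicate 3 (−0.90, adjusted p = 0.0782).

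Sms (chrX:157443855-157492287, minus strand), the gene of spermine synthase, fell as well. Its values were 108, 123 and 95.9 CPM in control and 74.4, 70.9 and 75.2 CPM in KO. KO libraries lay close together and below every control library (log2 fold change −0.57, SE 0.119, edgeR adjusted p = 0.00518). Sms stayed called under all 14 alternatives (−0.71 to −0.48), and the libraries numbered 1 and 2 alone gave −0.67 (adjusted p = 0.0022). Of its stretches 17.5% occur in other genes, mainly the copy Sms-ps.

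Arg2 (chr12:79130777-79156301, plus strand) encodes the mitochondrial arginase, which can supply ornithine. It was low, with 7, 15 and 24 reads in the controls by replicate number and 35, 44 and 32 reads in KO, or 0.426, 0.310 and 0.570 CPM against 1.33, 1.17 and 1.63 CPM. KO libraries were all higher, and Arg2 rose by 1.65 on the log2 scale (SE 0.391, edgeR adjusted p = 0.00891), staying called under all 14 alternatives (1.39 to 1.88). Among genes called higher, 27.2% had a larger log2 fold change. Of its exonic bases 28.1% overlap genes on the other strand, chiefly Vti1b, which held 42.8 ± 4.77 and 51.1 ± 0.359 CPM (log2 fold change 0.25, adjusted p = 0.114), and since the strand setting of the counting is not given, reads of both genes cannot be told apart there. The other arginase gene, Arg1, a marker of alternatively activated macrophages, held 0.368 ± 0.250 and 0.678 ± 0.0741 CPM (SD, n = 3). It was not called (log2 fold change 0.98, edgeR adjusted p = 0.221), and without control replicate 2 the change was 0.41. All KO libraries (0.614 to 0.759 CPM) nevertheless lay above all controls (0.0826 to 0.547 CPM), at low counts.

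In catabolism Sat1 changed most among the abundant members. Sat1 (chrX:155213132-155216449, minus strand) encodes spermidine/spermine N1-acetyltransferase, which acetylates polyamines for export or oxidation. It held 96.4, 106 and 95.8 CPM in control and 223, 294 and 289 CPM in KO. All KO libraries lay far above the controls, which differed little among themselves, and Sat1 rose 2.70-fold (log2 fold change 1.43, SE 0.137, edgeR adjusted p = 0.000203). Among genes called higher, 32.7% had a larger log2 fold change. It stayed called under all 14 alternatives (1.34 to 1.55), and the libraries numbered 1 and 2, which carry no more than 3 Y-linked counts, gave 1.35 (adjusted p = 0.000139). Bulk counts cannot tell more Sat1 RNA per cell from more cells that express it, and the same holds for each member.

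Smox (chr2:131491496-131525922, plus strand), the gene of spermine oxidase, which turns spermine back to spermidine, held 237, 247 and 329 CPM in control and 198, 235 and 287 CPM in KO. Replicate 3 was the highest library of both groups and the groups overlapped. The log2 fold change of −0.18 was not called (SE 0.178, 95% interval −0.58 to 0.23, edgeR adjusted p = 0.444). With 1 library left out it ranged from −0.06 (without KO replicate 1) and −0.07 (without control replicate 3) to −0.32 (without control replicate 1 or KO replicate 3), and it was never called.

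Paox, which is no member but encodes the peroxisomal oxidase that works on the acetylated products of Sat1, fell. It held 20.3, 24.1 and 20.0 CPM in control and 6.68, 5.29 and 4.98 CPM in KO (log2 fold change −1.93, SE 0.180, edgeR adjusted p = 0.000193), and stayed called under all 14 alternatives. The acetyltransferase that begins catabolism was thus higher and this oxidase lower in every KO library, although 28.5% of the Paox stretches occur in other genes, mainly Gm19680.

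The antizyme genes did not move alike. Oaz1 (chr10:80826656-80829290, plus strand), the main antizyme, held 245, 323 and 218 CPM in control and 213, 222 and 188 CPM in KO, with overlapping groups. Its log2 fold change of −0.34 (SE 0.159, 95% interval −0.70 to 0.03) was not called (edgeR adjusted p = 0.114), though it was with the replicate block (−0.32, adjusted p = 0.0372) and without control replicate 3 (−0.52, adjusted p = 0.0257). Without control replicate 2 it was −0.17. Of its stretches 20.99% occur in other genes, mainly the copy Oaz1-ps.

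Oaz2 (chr9:65668001-65690300, plus strand), a second, less abundant antizyme, held 19.3, 19.4 and 26.3 CPM in control and 27.9, 40.6 and 41.1 CPM in KO. KO replicate 1 lay only just above control replicate 3, while the other KO libraries stood well apart. Oaz2 rose by 0.75 on the log2 scale (SE 0.196, edgeR adjusted p = 0.0135). The call was lost without control replicate 1 (0.61, adjusted p = 0.0676), control replicate 2 (0.66, adjusted p = 0.0546) or KO replicate 2 (0.67, adjusted p = 0.0598).

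Azin1 (chr15:38487427-38519266, minus strand), the gene of antizyme inhibitor, an inactive relative of ornithine decarboxylase that captures antizyme, held 223, 218 and 175 CPM in control and 173, 155 and 135 CPM in KO. The groups were separated only by the small gap between control replicate 3 and KO replicate 1. Azin1 fell by 0.41 on the log2 scale (SE 0.141, edgeR adjusted p = 0.0398). Scaling by library size only ended the call (−0.32, adjusted p = 0.0938), as did leaving out control replicate 1 (−0.42, adjusted p = 0.102), control replicate 2 (−0.38, adjusted p = 0.0889), KO replicate 2 (−0.41, adjusted p = 0.111) or KO replicate 3 (−0.33, adjusted p = 0.141).

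Their relatives outside the members were low. Oaz3, the antizyme known from the testis, held 0.420 ± 0.129 CPM in control and rose to 1.57 ± 0.184 CPM (SD, n = 3), by 1.89 on the log2 scale (edgeR adjusted p = 0.00447), but 55.8% of its exonic bases overlap genes on the other strand, mainly Tdrkh (54.7 ± 6.69 and 55.0 ± 4.6 CPM), so its reads are uncertain. Azin2, a second antizyme inhibitor, held 10.9, 4.56 and 15.7 CPM in control and 16.7, 17.5 and 29.4 CPM in KO and was not called (1.03, adjusted p = 0.067), but passed with the replicate block (1.15, adjusted p = 0.003). It also passed without control replicate 3 (1.45, adjusted p = 0.00777), with the libraries numbered 1 and 2 only (1.19, adjusted p = 0.0129), without a filter (adjusted p = 0.0226) and by DESeq2 (adjusted p = 0.0127). Without control replicate 2 it was 0.65 (adjusted p = 0.124) and without KO replicate 3 it was 0.72 (adjusted p = 0.214).

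**Figure D3:**
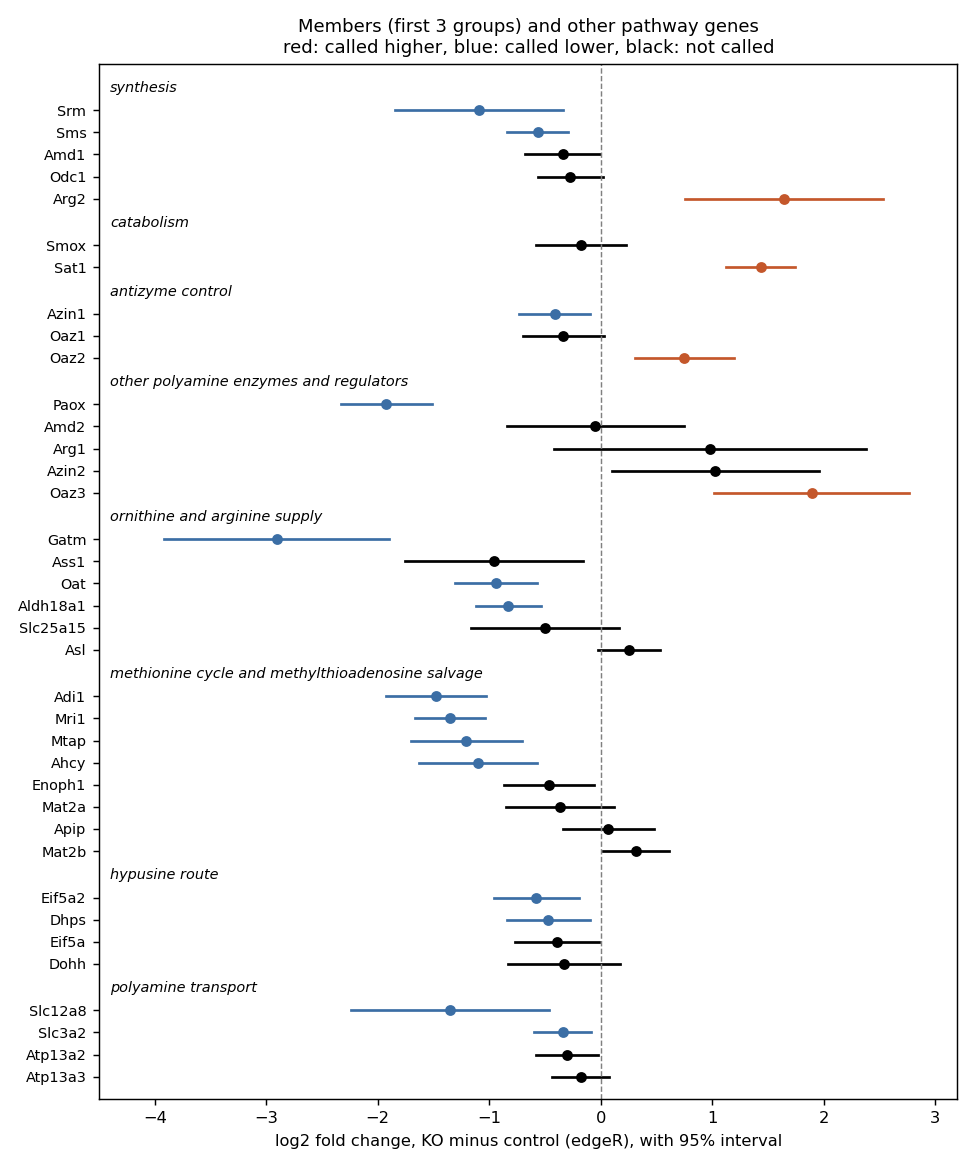
Log2 fold change of KO against control with its 95% interval (horizontal axis) for the 10 members, in the first 3 groups, and 27 tested genes of neighbouring pathways. Sat1, Arg2, Oaz2 and Oaz3 are called higher, whereas 15 genes, among them Srm, Sms and Paox, are called lower.

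Ratios of reads within a library do not depend on scaling between libraries. Sat1 reads per Srm read, which set the acetyltransferase beside spermidine synthase, were 0.818, 0.803 and 1.47 in the controls, by replicate number, against 2.99, 7.61 and 8.43 in KO. The groups did not overlap, and KO replicate 1 was the nearest to control (two-sided exact permutation test on log2 ratios, p = 0.1, the smallest that 3 against 3 libraries allow). The ratio of Oaz2 to Oaz1 reads was 0.0786, 0.0601 and 0.121 in the controls against 0.131, 0.183 and 0.219 in KO, again without overlap (exact p = 0.1). Both ratios set a member that rose over one with a negative log2 fold change in these same libraries. Their separation restates the fold changes given above and is no further support for them. Oaz1 reads per Odc1 read averaged 0.169 ± 0.0292 (SD, n = 3) in control against 0.163 ± 0.0232 in KO, which is less than the spread between libraries (exact permutation p = 0.9), as was that of Azin1 per Oaz1 (0.796 ± 0.118 and 0.742 ± 0.0588; exact permutation p = 0.7). Of these 5 ratios, Sms per Srm also overlapped between the groups (exact p = 0.2), although it was higher in KO within each of the 3 pairs of equal replicate number, as were Sat1 per Srm and Oaz2 per Oaz1. The permutation test does not use the pairs, and no ratio could pass 0.05 in this design.

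**Figure D4:**
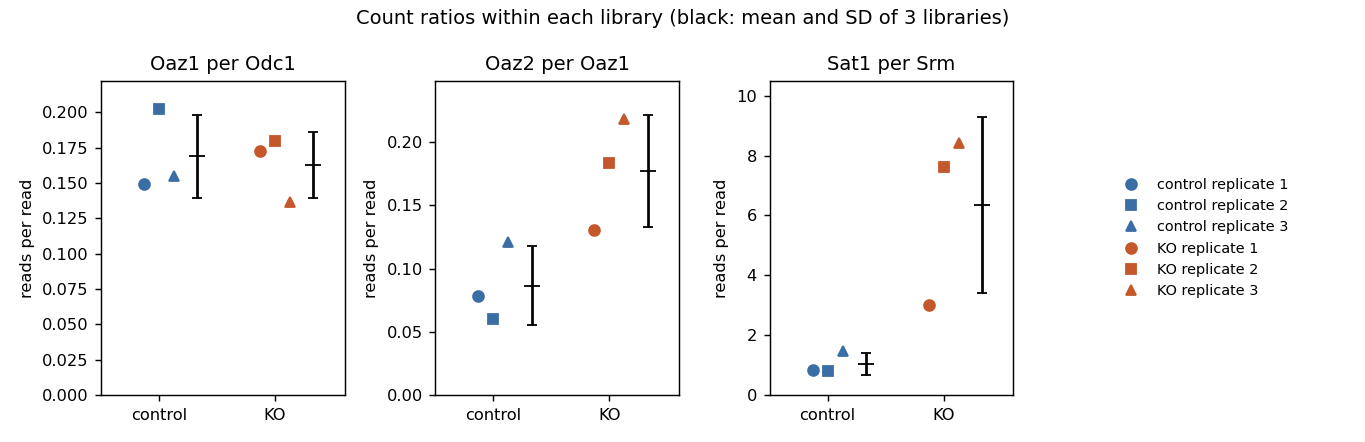
Reads of one gene per read of another within each library (vertical axis, from 0), with the mean and SD in black. Sat1 per Srm and Oaz2 per Oaz1 are higher in each KO library than in any control library, and Oaz1 per Odc1 overlaps.

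Control replicate 3 lay nearest to the KO mean among the controls in 8 of the 10 members, the exceptions being Sat1 and Smox. Over all tested genes it was the nearest control for 42.9%. What this library's position adds to the results was tested by leaving it out, alone or together with KO replicate 3, as given above.

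Promoters were looked up in RefSeq (GRCm38.p6), which gave 300 bases, 250 before and 50 after the start, for 7 of the 10 members. Entries for Srm, Azin1 and Arg2 were missing. Both strands were searched for CACGTG, the palindrome bound by MYC and its relatives, which 7.15% of 32851 promoters hold, and for TGATGNAA, a core of the ATF4 response element, which 3.97% hold. Among the 8 entries only the upstream start of Sms held CACGTG, 196 bases before the start, and none held TGATGNAA. Sequence outside these windows was not searched, so sites elsewhere in the genes would be missed. The promoters of Sat1 and Oaz2, which rose, and this start of Sms, which fell, are shown with the match in capitals.
Sat1 promoter, chrX:155216400-155216699, minus strand: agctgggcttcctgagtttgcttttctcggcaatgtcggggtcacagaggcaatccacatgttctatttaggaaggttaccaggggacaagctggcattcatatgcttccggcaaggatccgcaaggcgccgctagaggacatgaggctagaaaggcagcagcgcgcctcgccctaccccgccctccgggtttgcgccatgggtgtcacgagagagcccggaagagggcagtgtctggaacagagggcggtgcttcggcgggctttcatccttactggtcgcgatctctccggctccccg
Oaz2 promoter, chr9:65676298-65676597, plus strand: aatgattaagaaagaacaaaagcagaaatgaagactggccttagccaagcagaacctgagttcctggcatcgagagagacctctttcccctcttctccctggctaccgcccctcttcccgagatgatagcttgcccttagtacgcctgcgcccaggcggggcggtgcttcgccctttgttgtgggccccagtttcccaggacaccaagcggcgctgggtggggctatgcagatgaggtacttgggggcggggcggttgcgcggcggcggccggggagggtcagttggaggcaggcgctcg
Sms upstream promoter, chrX:157492238-157492537, minus strand: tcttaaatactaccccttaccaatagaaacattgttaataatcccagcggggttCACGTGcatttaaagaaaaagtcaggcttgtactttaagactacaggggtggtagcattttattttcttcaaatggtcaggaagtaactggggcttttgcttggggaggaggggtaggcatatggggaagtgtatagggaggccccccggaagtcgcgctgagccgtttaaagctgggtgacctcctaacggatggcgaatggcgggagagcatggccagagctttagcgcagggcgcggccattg
Their GC content was 60.3%, 61.7% and 50.3%, against a median of 52.7% over all promoters and 78.0% for Odc1, whose window is richer in GC than 98.1% of them.

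Genes around the polyamine core mostly fell or did not pass the test. Of 33 genes in 5 lists 27 were tested, and 12 were called lower and 1, Oaz3, higher, with a median log2 fold change of −0.46. The lists were chosen with earlier results of these data known, so these counts are a description and no test of the pathway. The background is that given above, 22.9% lower and 23.2% higher. Blocking on the replicate number called 16 lower and 3 higher, beside 26.4% and 27.0% of all tested genes. Calls in the lower direction fell to 8 without KO replicate 2, beside 15.1%.

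Methionine feeds the aminopropyl donor, and methylthioadenosine, the by-product of both synthases, is salvaged back to methionine. Of the 8 genes on this route 4 fell and 4 were not called. Mtap, the phosphorylase that opens the salvage, fell from a mean of 49.1 ± 9.52 CPM to 21.3 ± 5.89 CPM (SD, n = 3), or by 1.21 on the log2 scale (SE 0.219, edgeR adjusted p = 0.00273). The next enzyme, encoded by Mri1, fell from 40.5 ± 3.27 to 15.8 ± 1.605 CPM (−1.35, SE 0.138, adjusted p = 0.000251). Adi1, a later dioxygenase of the salvage, fell from 35.9 ± 3.15 to 12.9 ± 3.50 CPM (−1.47, SE 0.198, adjusted p = 0.000754). These 3 stayed called under all 14 alternatives, as did Ahcy (−1.10, adjusted p = 0.00526), the hydrolase of S-adenosylhomocysteine, whose reads are uncertain because 68.7% of its stretches also lie in other genes. Apip (0.07, adjusted p = 0.776) and Enoph1 (−0.46, adjusted p = 0.0606), which stand between Mri1 and Adi1 in the salvage, were not called. Enoph1 passed with the replicate block (adjusted p = 0.0208), with upper-quartile factors (adjusted p = 0.0457), with the libraries numbered 1 and 2 only (adjusted p = 0.0201) and without control replicate 3 (−0.67, adjusted p = 0.00601). Mat2b, a regulatory subunit of methionine adenosyltransferase, was not called (0.31, adjusted p = 0.0775), but passed with the block (adjusted p = 0.0329), with library size only (adjusted p = 0.031) and without KO replicate 1 (0.40, adjusted p = 0.0465). Without control replicate 1 it was 0.18 (adjusted p = 0.388) and without KO replicate 2 it was 0.20 (adjusted p = 0.281). Mat2a, the catalytic subunit, was not called (−0.37, adjusted p = 0.191), but passed without control replicate 3 (−0.64, adjusted p = 0.00555) and with the libraries numbered 1 and 2 only (−0.50, adjusted p = 0.0165).

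Ornithine is exchanged with proline, glutamate, creatine and the urea cycle. Of 6 tested genes 3 fell. Gatm, which spends arginine on creatine synthesis and releases ornithine, held 65.7, 62.3 and 140.3 CPM in control and 19.9, 8.89 and 7.02 CPM in KO (log2 fold change −2.91, SE 0.445, edgeR adjusted p = 0.00132), and without control replicate 3, its high library, the change was −2.47. Oat, the ornithine aminotransferase, fell from 119 ± 20.0 to 62.0 ± 10.03 CPM (−0.94, adjusted p = 0.00216), and Aldh18a1, which makes ornithine and proline precursors from glutamate, from 228 ± 20.1 to 129 ± 15.03 CPM (−0.83, adjusted p = 0.0014). Ass1, an arginine synthesis gene, missed the threshold (−0.96, adjusted p = 0.0507) and was called under 8 of the 14 alternatives, among them without control replicate 3 (−1.17, adjusted p = 0.0197) and without KO replicate 1 (−1.45, adjusted p = 0.00543), and with the replicate block (−1.09, adjusted p = 0.00217). Slc25a15, the mitochondrial ornithine carrier, was not called (−0.50, adjusted p = 0.193) but passed under blocking (−0.59, adjusted p = 0.0275) and without KO replicate 1 (−0.89, adjusted p = 0.0215). Without KO replicate 3 it was −0.24 (adjusted p = 0.465).

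Spermidine is also consumed to make hypusine on the translation factor encoded by Eif5a. Of the 4 genes of this route 2 fell, Dhps (−0.47, edgeR adjusted p = 0.0427), whose product attaches the spermidine part, and Eif5a2 (−0.58, adjusted p = 0.0207). Both calls were lost without control replicate 1 (adjusted p = 0.0634 and 0.0529), control replicate 2 (0.128 and 0.0667), KO replicate 2 (0.100 and 0.0707) and KO replicate 3 (0.0704 and 0.0690), and that of Dhps also without KO replicate 1 (0.128) and with library size only (0.0804). Eif5a, at 1365 ± 282 and 1039 ± 64.9 CPM (SD, n = 3), was not called (−0.39, adjusted p = 0.0824) but passed under blocking (adjusted p = 0.0414), with the libraries numbered 1 and 2 only (adjusted p = 0.0439) and without control replicate 3 (−0.60, adjusted p = 0.0168). Without control replicate 2 it was −0.25 (adjusted p = 0.216).

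Among 4 tested genes linked to transport 2 fell, Slc3a2 (−0.34, edgeR adjusted p = 0.0346), the heavy chain of amino acid transporters that has also been linked to polyamine movement, and Slc12a8 (−1.35, adjusted p = 0.0204), at 4.02 ± 1.71 and 1.599 ± 0.553 CPM (SD, n = 3). Slc3a2 lost its call without control replicate 1 (adjusted p = 0.0565), control replicate 2 (0.0734), KO replicate 1 (0.0595), KO replicate 2 (0.143) or KO replicate 3 (0.0812), with library size only (0.0813), without a filter (0.0521) and by DESeq2 (0.052). Slc12a8 lost its call without KO replicate 1 (adjusted p = 0.0629) or KO replicate 2 (adjusted p = 0.0814). The polyamine pumps Atp13a2 (−0.30, adjusted p = 0.0689) and Atp13a3 (−0.18, adjusted p = 0.226) were not called.

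**Figure D5:**
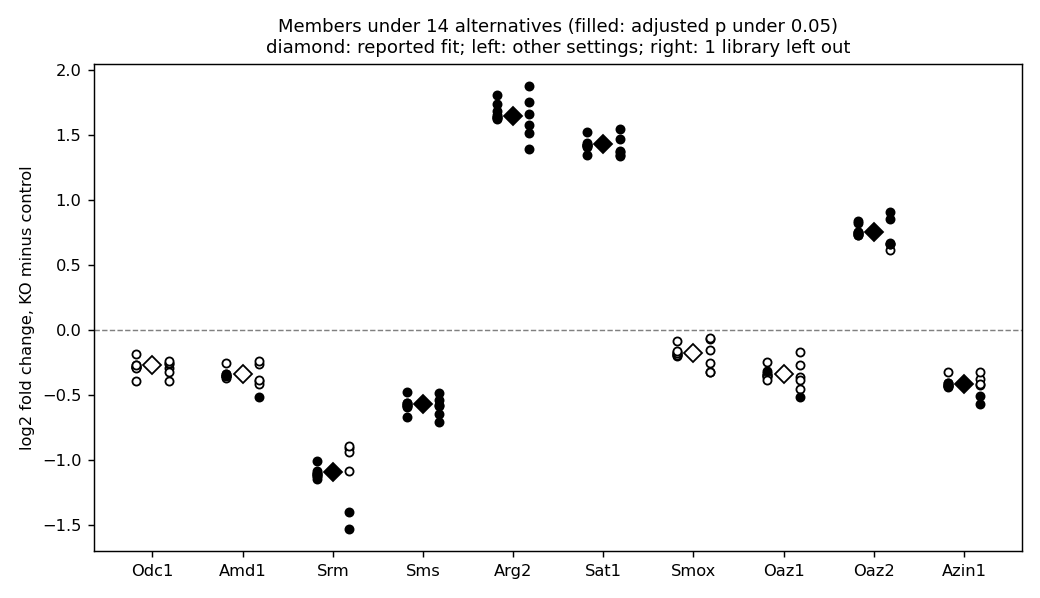
Log2 fold change of each member (vertical axis) in the reported fit (diamonds), under 8 other settings (left) and with 1 library left out (right), filled where the adjusted p is under 0.05. Sms, Arg2 and Sat1 are filled throughout, whereas Srm, Oaz2 and Azin1 lose the call in some fits and no member changes sign.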

How the data were processed

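RNA of 6 libraries was sequenced. The values the authors deposited are whole-number counts per gene symbol, and STAR, featureCounts, DESeq2 and build mm10 are named per the submitters' processing notes, without versions or roles. Annotation, strand setting and treatment of multi-mapped reads are not given in the sources used here. Columns were matched to samples by their descriptions.

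KO was compared with control by edgeR's quasi-likelihood test (edgeR 4.0.16, R 4.3.3; TMM factors, filterByExpr, no covariate, Benjamini-Hochberg over 14268 genes), which was tested on simulated data. SE is the absolute log2 fold change over the square root of F. Alternatives were DESeq2 1.42.0, other scalings and filters, the replicate block, the libraries numbered 1 and 2, and leaving out each library. Equal replicate numbers correlated in their deviations from group means (0.27, 0.13 and 0.38). The numbers were read as pairs only in the replicate block and in comparisons of equal replicate numbers. The 0.38 belongs to replicate 3, whose libraries held 11376 and 5147 Y-linked counts, and the part of sex in it was not tested. Unequal numbers gave −0.39 to 0.20. Deviations sum to 0 within each group, so these correlations are not independent of each other. Control replicate 2 correlated more with KO replicate 1 (0.20) than with KO replicate 2 (0.13), so the pairing is not settled. Lengths, coordinates and shared 50-base stretches came from GENCODE M21 (GRCm38, the assembly of mm10). Members and lists were chosen with earlier results of these data known. Named are all members, Rtf1, Myc, and, of each fixed pathway list, up to 3 called genes per direction in full.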

Additional observations from a re-analysis of the deposited data

How the results depend on the processing

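Every member kept its direction under all 14 alternatives. Members called lower numbered 5 with the replicate block, beside 26.4% of all tested genes. With 1 library left out they ranged from 1 to 5, beside 15.1% to 25.8%. Members called in all ranged from 3 to 8 in those fits, beside 31.1% to 49.1% of all tested genes. Other pathway genes called higher numbered 1 in the reported fit, beside 23.2% of all tested genes. With library size only and with the replicate block they numbered 3, beside 26.7% and 27.0%. Without a filter, by DESeq2 and with the libraries numbered 1 and 2 only they numbered 2, beside 16.3%, 19.1% and 22.7%. They ranged from 1 to 2 with 1 library left out, beside 15.7% to 23.3%. Lower calls over all tested genes ranged from 2170 (without KO replicate 2) to 3700 with 1 library left out. Amd2 reversed with library size only (0.042) and without KO replicate 2 (0.17), with a range of −0.35 to 0.17 when 1 library was left out, and Apip without control replicate 1 (−0.03), control replicate 3 (−0.13) or KO replicate 2 (−0.01), with a range of −0.13 to 0.23, and the cause was not tested. Library size only moved the split of calls to 3809 higher and 2799 lower. The replicate block changed no call of a member other than Amd1 and Oaz1. Depth limits Arg2, whose lowest library held 7 reads. Intervals rest on the spread of 3 libraries per group.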
